A study of Rattus norvegicus with 6 samples.

Results

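The highest-signal peaks listed in α1ACT cells and in neither empty-vector list numbered 317, out of 161730 peaks in the α1ACT 1804 list (0.196%). They were selected on the authors' signal: a member had a signal of at least 14.03, the lowest value of any peak in the empty-vector 1804 list, and shared no base with a peak of either empty-vector list. Of the 489 peaks of the α1ACT 1804 list at or above that limit, the other 172 overlapped an empty-vector peak, and 161219 further peaks without such an overlap lay below the limit. Signal and absence from the empty-vector lists therefore describe the members by construction and are not results.

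The lists come from chromatin immunoprecipitation and sequencing (ChIP-seq) of PC12 cells, a rat pheochromocytoma line. The line titled Q11 in the labels stably expressed human α1ACT, and its counterpart carried the empty pCDNA3 vector (EV); both were at passages 18 to 20 and were fixed with 1% formaldehyde for 10 min. From each line came 1 library made with the anti-FLAG antibody M2, 1 made with an antibody labelled 1804, whose target the labels do not state, and 1 input. The 6 libraries have no replicates, so a value below has no replicate error, no test between the 2 lines was possible, and differences compare these libraries only. The labels do not say whether a line is 1 clone, and the series design text speaks of tissues at day 3 where the sample labels name PC12 cells. Read depth is unknown, and peak lists hold no expression values against which the labelled cell type could be checked.

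α1ACT is a transcription factor translated from the 3′ portion of the transcript of CACNA1A, the gene that also encodes the pore-forming subunit of the P/Q-type calcium channel. In ChIP-seq, a peak marks a stretch of DNA recovered more often than its surroundings. Many mammalian genes that are active in most cells start within CpG islands, stretches rich in G, C and the dinucleotide CpG, and binding motifs of general promoter factors lie close to the transcription start site (TSS). Whether a peak lies near a TSS was no part of the rule, and position is what the account below turns on.

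The deposited files hold no bases, so the sequences shown are promoters from RefSeq on the GRCr8 build, from 250 bases before to 50 bases after the start of the gene, matched by gene ID. Eligible genes had a symbol, a RefSeq promoter in the table and a member whose nearer edge lay in that window in the authors' annotation on the rn5 build. A member is 56 bp wide and can run past the end of the window. Lrrc16b and Rad54l2, with signals of 21.2 and 18.1, were not matched. The promoters of the 5 eligible genes of highest signal are shown for the bases around the strongest promoter members. Capitals mark matches to the motifs searched, spelled out with their shares further on. The start site of RefSeq may differ from the one the authors' annotation used. Slc7a8 encodes an amino acid transporter light chain, Jund a subunit of the AP-1 transcription factor, Dus1l a tRNA dihydrouridine synthase, Chrnb1 a subunit of the muscle acetylcholine receptor and App the amyloid precursor protein.
Slc7a8, chr15:32212666-32212965, minus strand: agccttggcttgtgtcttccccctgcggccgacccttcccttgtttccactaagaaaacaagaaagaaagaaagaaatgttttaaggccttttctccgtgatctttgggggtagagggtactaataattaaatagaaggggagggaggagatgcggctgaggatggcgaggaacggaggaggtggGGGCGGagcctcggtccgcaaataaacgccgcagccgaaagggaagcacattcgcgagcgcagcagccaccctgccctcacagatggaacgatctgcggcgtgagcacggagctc
Jund, chr16:18769722-18770021, minus strand: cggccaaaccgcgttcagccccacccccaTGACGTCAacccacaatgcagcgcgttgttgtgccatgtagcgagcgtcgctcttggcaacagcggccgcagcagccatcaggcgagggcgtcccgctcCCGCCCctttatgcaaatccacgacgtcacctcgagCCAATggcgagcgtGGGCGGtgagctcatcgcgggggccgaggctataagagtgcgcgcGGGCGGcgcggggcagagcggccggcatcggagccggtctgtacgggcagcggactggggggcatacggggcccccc
Dus1l, chr10:106560862-106561161, minus strand: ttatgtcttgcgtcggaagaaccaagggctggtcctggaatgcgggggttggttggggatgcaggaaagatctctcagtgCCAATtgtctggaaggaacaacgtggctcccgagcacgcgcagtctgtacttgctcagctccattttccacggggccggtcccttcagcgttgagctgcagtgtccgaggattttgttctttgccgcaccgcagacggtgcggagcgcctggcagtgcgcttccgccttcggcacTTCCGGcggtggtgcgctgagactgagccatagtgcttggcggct
Chrnb1, chr10:55015058-55015357, minus strand: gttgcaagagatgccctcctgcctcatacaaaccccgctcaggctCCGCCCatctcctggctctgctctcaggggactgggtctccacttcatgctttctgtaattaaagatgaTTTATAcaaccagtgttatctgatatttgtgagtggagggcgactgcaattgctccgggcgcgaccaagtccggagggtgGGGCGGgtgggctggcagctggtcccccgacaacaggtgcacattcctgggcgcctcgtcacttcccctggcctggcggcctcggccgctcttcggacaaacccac
App, chr11:37722789-37723088, minus strand: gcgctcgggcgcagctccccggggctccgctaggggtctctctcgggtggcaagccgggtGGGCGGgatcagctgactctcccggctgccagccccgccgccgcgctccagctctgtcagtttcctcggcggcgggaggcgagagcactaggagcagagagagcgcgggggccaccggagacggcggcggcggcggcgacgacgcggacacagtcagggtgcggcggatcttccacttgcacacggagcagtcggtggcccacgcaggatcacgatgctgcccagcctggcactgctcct

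The member at Slc7a8 lay on rn5 chr15:37317096-37317151 and had a signal of 22.8, its nearer edge 10 bp inside the gene. Its promoter was 55.7% G and C, with 19 CpG dinucleotides and 1 GC box. The member at Jund lay on chr16:20343684-20343739, 36 bp downstream, with a signal of 19.5. The Jund promoter was 69.7% G and C, with 37 CpG, 3 GC boxes, a CCAAT box and a cAMP response element (CRE). The member at Dus1l (chr10:109570502-109570557, signal 18.6) lay 10 bp downstream, and the Dus1l promoter held 23 CpG, a CCAAT box and an ETS site. The member at Chrnb1 (chr10:56148146-56148201, signal 18.3) lay 36 bp downstream, and this promoter, with 15 CpG the poorest of the 5, held 2 GC boxes. It also held the only exact match to TATAAA among them, on the other strand. The search took exact letters at any place in the window, so this match does not show which of the 5 has a working TATA box. The member at App (chr11:28265151-28265206, signal 17.9) lay 44 bp upstream, in the most GC-rich of the 5 promoters, with 72.7% G and C and 35 CpG. All 5 had a CpG ratio, observed over expected, between 0.564 (Chrnb1) and 1.017 (Jund), against a median of 0.417 over the 27457 promoters of the table.

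Signal within the set was steep at the top and flat below. It ran from 14.04 to 899 with a median of 16.2, against medians of 77.3 in the 172 peaks above the limit that touched an EV peak and 3.02 in the remaining EV-free peaks. Only 6 members exceeded a signal of 50, 58 lay from 20 to 50 and 253 (79.8%) lay under 20. The 5 members just inside the limit had signals of 14.04 to 14.11 and were listed under Rfng, Urb1, Snx18, Vom1r5 and Vgf. The 5 peaks just outside it had signals of 13.999 to 14.027 and were listed under Loxl2, Ptpra, Numbl, Cd99 and Cdk8. The limit thus passed through a continuum. All 317 members carried the highest −log10 q-value of the list, 3.89, which the authors' table gives to 11673 of its peaks (7.22%).

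**Figure D1:**
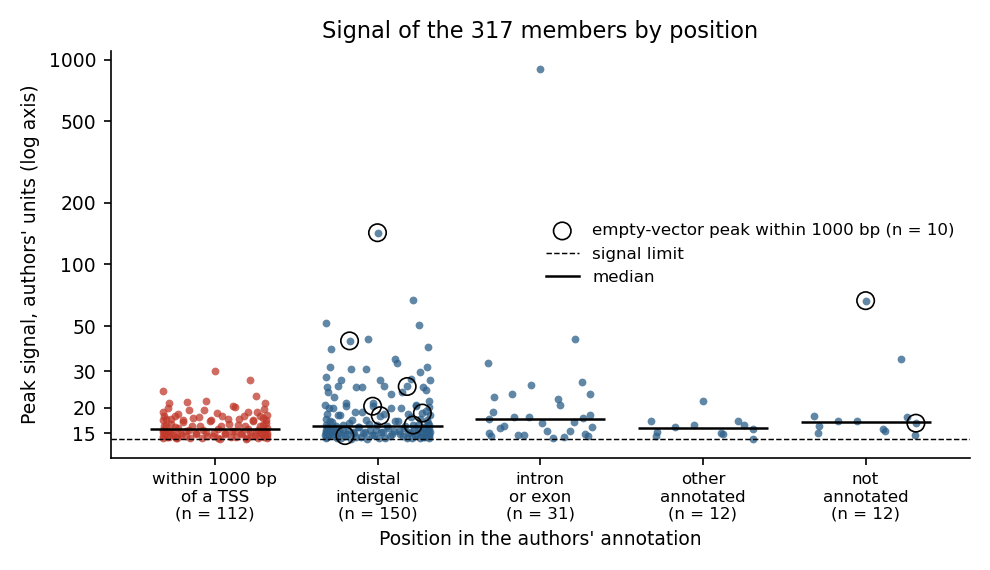
Each point is 1 of the 317 members, with the authors' signal on a log axis, split by position in the authors' annotation. Lines mark medians, the dashed line the signal limit of 14.03, and circles the 10 members with an empty-vector peak within 1000 bp. Members near a TSS reached 30.3 at most, whereas intergenic and intronic members reached 143 and 899.

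The member with by far the highest signal lay in Tbcd, which encodes a chaperone that folds tubulin. It occupied chr10:110277977-110278032 on rn5, in intron 13 of 38 and 48.7 kb into the gene, and its signal in the α1ACT 1804 list was 899. It was also the only member that overlapped a peak of the α1ACT M2 list, where its signal of 371 was again the highest of 81 peaks. It was listed in neither EV library, and the nearest EV peak lay 514 kb away. No other α1ACT 1804 peak lay within 1 kb, the nearest being 11.5 kb off, and a separate peak within 1000 bp of the Tbcd TSS had a signal of 13.2, below the limit. Thus 1 of the 317 members overlapped an α1ACT M2 peak (0.315%, exact 95% binomial interval 0.00799 to 1.74), against 0 of the 161219 other peaks free of an EV overlap. Among the 172 peaks above the limit that overlapped an EV peak it was 72 (41.9%, 34.4 to 49.6). These peaks and the members differed in signal, with medians of 77.3 and 16.2, so their shares were not compared at like signal. Intervals on shares here and below cover counting error only, and neighbouring peaks are not independent.

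Most of the other members among the 15 highest were intergenic. Rank 2, with a signal of 143, occupied chr11:60846274-60846329, 49.1 kb upstream of Qtrtd1. Rank 3, with 66.9, lay 63.8 kb downstream of the RragB TSS on chromosome X at 19832478-19832533, and rank 4, with 66.6, lay on the mitochondrial genome at 16209-16264. Rank 5 (chr11:86304795-86304850, signal 51.5) and rank 6 (chr5:126926215-126926270, signal 50.7) lay 280 and 212 kb from the TSSs of Ehhadh, a peroxisomal enzyme of fatty acid oxidation, and Oma1, a mitochondrial protease. Ranks 7 to 15 had signals of 32.9 to 43.4. Rank 7 lay on chr4:214315523-214315578 in an intron of the transcript of Marchf8, a ubiquitin ligase, although the nearest TSS was that of Alox5. Rank 15 lay in the last intron, 21 of 21, of Armc8 at chr8:107231908-107231963. Those between were intergenic or, for 1 peak near the end of chromosome 12, without annotation, and were listed under Hrh1, Mir874, Slc29a4, Pold3, Ahi1 and Smpdl3a at 18.1 to 408 kb from the TSS. No member of the first 19 ranks lay within 1000 bp of a TSS.

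The description as α1ACT-only did not hold strictly for all members. For 10 of the 317 (3.15%, 1.52 to 5.72) an EV peak lay within 1 kb without touching the member, and for 6 of these it lay within 100 bp; the share was 53 of 161219 among the other peaks free of an EV overlap (0.0329%, 0.0246 to 0.0430). The chr11 member of rank 2 was 37 bp from a peak with a signal of 77.6 in the EV 1804 list and 143 in the EV M2 list, and 36 bp from one with 65.1 in the α1ACT M2 list. Each of the 4 precipitated libraries thus had a peak here, separated by gaps smaller than the 56 bp width of a peak. The mitochondrial member lay 61 bp from an EV M2 peak with a signal of 57.2. The member of rank 9 (chr17:9380267-9380322, signal 42.3) lay 81 bp from an EV 1804 peak with 24.6, and rank 32 (chr2:180006023-180006078, signal 25.3) lay 6 bp from an EV 1804 peak with 15.3. None of the 10 lay within 1000 bp of a TSS. At the other end, 252 members had no EV peak within 1 Mb, a count that was not made for the other peaks. The median distance to the nearest EV peak was 3.39 Mb among members (quartiles 1.28 and 9.86). Among the other peaks free of an EV overlap it was larger, 5.06 Mb (quartiles 2.02 and 10.8), so distance from EV peaks does not set the members apart.

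Members lay near gene starts far more often than the bulk of the list. Of the 305 members that the authors annotated, 112 lay within 1000 bp of a TSS (36.7%, 31.3 to 42.4), against 5.69% of the 159147 other annotated peaks free of an EV overlap (9063 peaks). Distal intergenic sequence held 150 members (49.2%, 43.4 to 54.9), against 74.6% of the others. Introns held 29 members (9.51%), against 16.2%. A further 10 were called promoter at 1 to 3 kb, 2 lay in exons, 1 in the 3′ UTR of Robo4 and 1 just downstream of Eif6. The median distance to the TSS was 19.2 kb among members and 119 kb among the others, and 8.20% of members, against 19.4% of the others, lay more than 500 kb from any TSS of the annotation. Intergenic members were also closer to genes than other intergenic peaks, with medians of 106 and 185 kb.

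This was not particular to the members. The 317 peaks free of an EV overlap that ranked next below the limit lay near a TSS in 136 of 312 annotated cases (43.6%, 38.0 to 49.3), so the share was at least as high just outside the set as within it. From there it fell with signal, to 40.4% at ranks 635 to 1500, 30.2% at ranks 1501 to 5000, 16.2% at ranks 5001 to 16000 and 4.04% below those. Within the set the highest-signal members differed from the rest: 5 of the 48 annotated members of ranks 1 to 50 lay near a TSS (10.4%, 3.47 to 22.7), against 107 of 257 of those ranked 51 to 317 (41.6%, 35.5 to 47.9), and these intervals do not overlap. The split at rank 50 was made after the values were seen. The 172 peaks above the limit that overlapped an EV peak were not in the authors' annotated table, so distances were taken to any TSS named there. Counted in this way, 112 of all 317 members lay within 1000 bp of a TSS (35.3%, 30.1 to 40.9), against 0 of these 172 peaks (a count of 0 allows up to 1.74%). This measure was not computed for ranks 1 to 50 alone, so their 10.4% has no like value beside the 172 peaks. Those peaks also differed from the members in signal, with medians of 77.3 and 16.2.

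**Figure D2:**
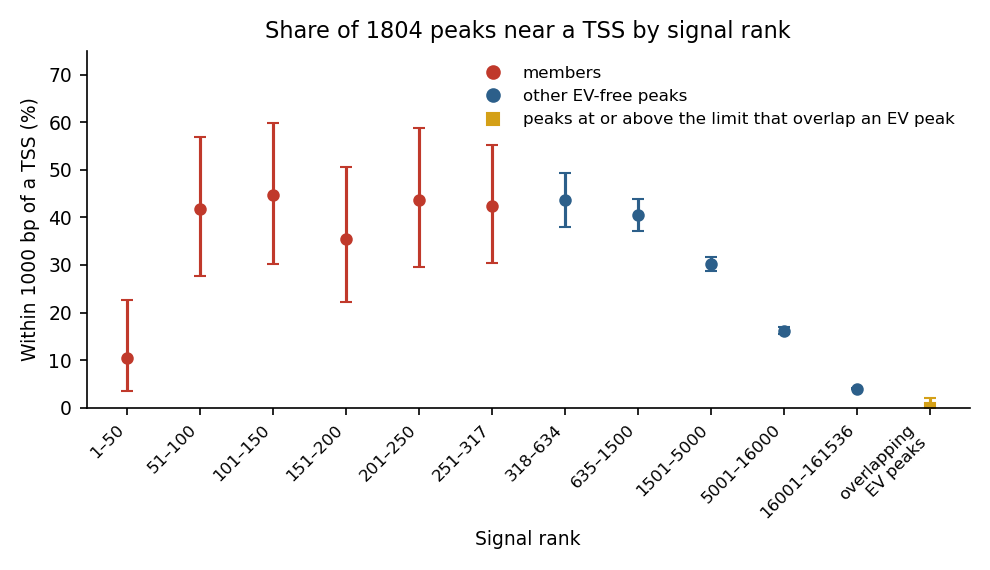
Share of α1ACT 1804 peaks within 1000 bp of a TSS (vertical axis, percent, with exact 95% binomial intervals) by signal rank among peaks free of an EV overlap, members in red and others in blue, with the peaks that overlap an EV peak at the right. The share was 10.4% at ranks 1 to 50, between 35.4% and 44.7% in the later bands of members, and 4.04% in the lowest ranks. For the peaks at the right, distances were taken to any TSS named in the authors' annotation.

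Near the TSS, members were concentrated just inside the gene. Of the 112, 79 lay over or downstream of the TSS (70.5%, 61.2 to 78.8), against 66.6% of the 9063 other TSS-near peaks (65.6 to 67.6), which is within the counting error. Between the TSS and 250 bp downstream lay 62 of the 112 (55.4%, 45.7 to 64.8), against 3266 of the 9063 (36.0%, 35.0 to 37.0). Directly over the TSS lay 16 (14.3%, 8.39 to 22.2), against 7.76% (7.21 to 8.33). The median position was 43.5 bp downstream for members and 90 bp for the others. Among the 317 peaks next below the limit, 65 of 136 TSS-near peaks lay between the TSS and 250 bp downstream (47.8%, 39.2 to 56.5), an interval that overlaps that of the members.

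**Figure D3:**
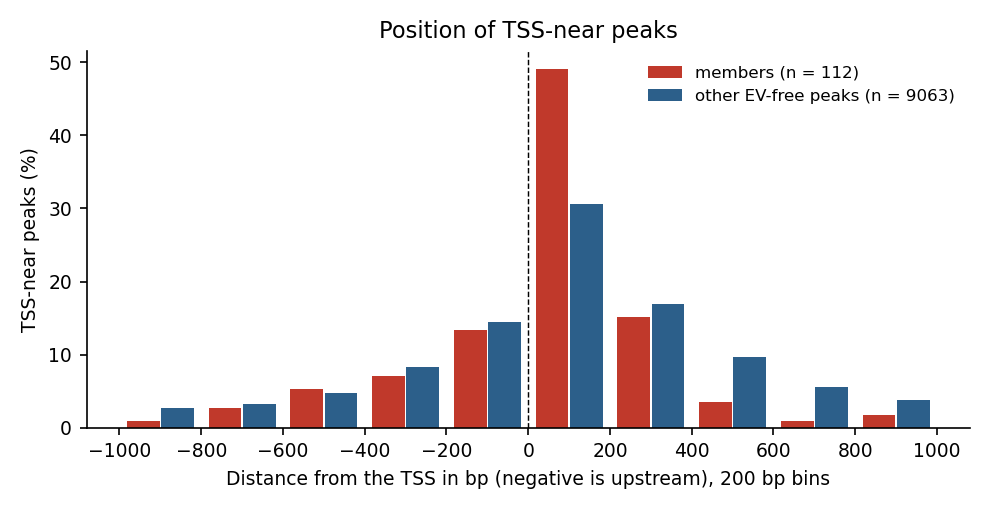
Position of TSS-near peaks in bins of 200 bp, as a percentage of the 112 members (red) and of the 9063 other peaks free of an EV overlap (blue). The bin from 0 to 200 bp downstream held 49.1% of the members and 30.7% of the others.

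The 112 TSS-near members belonged to 112 different genes, so no gene had more than 1, and 5 of these genes carry placeholder symbols. Over the 14390 genes of the authors' table this is 0.778%, the share to hold beside any gene group. That table names a gene only where a peak was assigned to it. Gene groups and the total of all genes below therefore leave out genes without an assigned peak. The highest signal was at Cadm1, an adhesion molecule of the immunoglobulin type, with 30.3 at 282 bp downstream of the TSS (chr8:50460979-50461034). Cep95, which encodes a centrosomal protein, followed with 27.3 at 599 bp upstream (chr10:94733463-94733518), and Socs2, a suppressor of cytokine signalling, with 24.0 at 669 bp upstream (chr7:36561292-36561347). Slc7a8 had 22.8, and Ulk2, a kinase that starts autophagy, 21.5 at 51 bp downstream (chr10:47922117-47922172). Signals then declined gradually through Lrrc16b (21.2), Cyb5b (21.1), Tsc22d2 (21.1), Trpc1 (20.3), RT1-CE4 (19.9), Lnpep (19.8), Jund (19.5), Aldh3a2 (19.4), Degs1 and Vps36 (both 19.1), Sympk (18.9), Polr3e (18.8), Dus1l (18.6), Chrnb1 and Rbbp5 (both 18.3). Of these 20 named genes, Cyb5b, Aldh3a2, Degs1, Vps36, Sympk, Dus1l, Chrnb1 and Rbbp5 had no other α1ACT 1804 peak within 1 kb of the member, whereas Cadm1 and Cep95 had 4 each.

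By gene group, members were spread thinly. Of 23 lists, 11 held at least 1 gene with a member at its TSS, 16 genes in all, and 96 of the 112 genes were in no list. The lists were drawn up with earlier results of these data known, so their counts are descriptions. Oxidative phosphorylation held 3 of 54 genes (5.56%, 1.16 to 15.4), all subunits of respiratory complex I: Ndufv2 with a signal of 17.6 at 11 bp downstream, Ndufv3 with 16.7 at 148 bp and Ndufb7 with 15.4 at 237 bp. Immediate early genes held 2 of 42 (4.76%, 0.582 to 16.2), Jund and, with 15.6 directly over its TSS, Dusp1, a phosphatase that inactivates MAP kinases. Calcium channels, pumps and release genes held 2 of 42, Trpc1, a cation channel subunit, at 296 bp upstream and Calm2, a gene for calmodulin, with 16.9 at 71 bp downstream. Class I and II histocompatibility genes held 2 of 32, RT1-CE4 and RT1-A3 (19.9 and 17.5), which belong to a multigene family whose reads can be shared between copies. Single genes came from the lists of cell adhesion (Cadm1, 1 of 16), cytokine signalling suppressors (Socs2, 1 of 7), amino acid transporters (Slc7a8, 1 of 25), autophagy (Ulk2, 1 of 30), Id and Hes factors (Hes6 with 15.1, 1 of 9), ribosomal proteins (Rpl31 with 17.1, 1 of 64) and histones (Hist1h2bl with 15.9, 1 of 33). With counts this small, only the interval of oxidative phosphorylation has its lower bound above the 0.778% of all genes. The intervals make no allowance for the 23 lists. Peaks of any signal free of an EV overlap were also more frequent in that list, at 38 of 54 TSSs (70.4%) against 43.2% of all genes. With 3 genes and 23 lists, the count for oxidative phosphorylation is too small to be read as a trait of the members.

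No member lay at the TSS of a gene in the remaining 12 lists. Genes of the chromaffin and sympathetic programme, the tissue PC12 cells derive from, held 0 of 27 (which allows up to 11.1%), presynaptic release genes 0 of 31 (up to 9.68%), cell cycle genes 0 of 33 (up to 9.09%), chaperones 0 of 28 and cerebellar genes 0 of 31. Krüppel-like and Sp factors held 0 of 20, immune cell markers 0 of 12 and liver genes 0 of 15. Peaks of any signal free of an EV overlap lay within 1000 bp of the TSS of 43.2% of all genes named in the authors' table. Among the 12 lists the share was higher for chaperones (21 of 28), presynaptic (64.5%), cell cycle (60.6%), chromaffin (59.3%), Zfp (58.0%) and Krüppel-like and Sp genes (11 of 20). It was lower for cerebellar (35.5%), liver (20.0%), microRNA (19.8%), olfactory receptor (5.67%) and vomeronasal receptor genes (5.33%), and 0 of 12 for immune cell markers. Olfactory receptors had a member in 0 of 829 genes (up to 0.362%), and vomeronasal receptors, microRNA genes and Zfp zinc finger genes in 0 of 169, 248 and 157. For olfactory receptors the bound lies below the 0.778% of all genes. However, only 47 of the 829 had a peak of any signal near the TSS, so this cannot be read as a trait of the members. For the other lists the depth of the count cannot show a difference. Of Btg1, Grn and Atp2b2, genes reported as α1ACT targets, none had a member near its TSS. Btg1, an antiproliferative gene, had 4 TSS-near peaks below the limit, the highest with 10.1. A limit of 10 would take in 1280 peaks free of an EV overlap. The TSS-near peak of Grn, which encodes progranulin, had 4.02, and no peak lay near the TSS of Atp2b2, a plasma membrane calcium pump.

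The promoters of genes with a member were rich in CpG, much as those of other genes with a peak. RefSeq held a promoter for 94 of the 112 genes. Their median G and C content was 63.7%, against 63.3% in 4946 promoters of genes with another peak free of an EV overlap within 1000 bp and 52.3% in all 27457 promoters. Median CpG counts per 300 bases were 25 for member genes, 24 for other genes with a peak and 7 for all. Of the member promoters, 80 had more than 50% G and C together with a CpG ratio above 0.6 (85.1%, 76.3 to 91.6), against 78.0% (76.8 to 79.2) of other genes with a peak and 33.5% of all promoters. The intervals of member genes and other genes with a peak overlap.

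Motif matches followed the same pattern. Motifs were searched on both strands: the GC box GGGCGG, the box spelled CCAAT, the TATA box TATAAA, the ETS site CCGGAA, the E box CACGTG, the CRE TGACGTCA and its variant TGACGTNA, which includes the CRE itself, the AP-1 site TGAGTCA, the E2F site TTTGGCGC, the YY1 site AAGATGGC, the NRF1 site and the element TCTCGCGA. The GC box was found in 70 of the 94 member promoters (74.5%, 64.4 to 82.9), against 70.2% of those of other genes with a peak and 34.9% of all. The ETS site was found in 30 (31.9%), against 29.1% and 15.8%. The TATA box was found in 9 (9.57%), against 6.23% and 14.3%, and CCAAT in 33 (35.1%), against 37.1% and 37.7%. The CRE was found in 5 (5.32%, 1.75 to 11.98), against 3.56% and 1.91%, and the CRE variant in 9 (9.57%, 4.47 to 17.4), against 5.46% and 3.39%. For each of these motifs the share of other genes with a peak lay inside the interval of the member genes. The NRF1 site was found in 0 of the 94 (a count of 0 allows up to 3.19%), against 2.24% and 0.932%; the AP-1, YY1, E2F and E box motifs were in 4, 5, 2 and 10.

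The element TCTCGCGA was the only motif for which the share of other genes with a peak lay outside the interval of the member genes. It was found in 6 of the 94 member promoters (6.38%, 2.38 to 13.4), against 101 of 4946 promoters of other genes with a peak (2.04%, 1.67 to 2.48) and 0.943% of all. Of the 34 promoters for which the nearer edge of the member lay within the printed window, 5 had the element (14.7%, 4.95 to 31.1). That share was not computed for other genes with a peak in this window, so it has no like comparison. The intervals of member genes and other genes with a peak overlap, and with 12 motifs searched the difference rests on 6 promoters. The stretches below show each gene's first match with up to 10 bases on either side, read on the strand of the gene and given on GRCr8, with the 8 bases of the match in capitals, as TCTCGCGA or as its complement on the other strand.
Tlk2, chr10:90656687-90656714, plus strand: gccgtgcaaaTCTCGCGAggaaacacga
Limk2, chr14:82509786-82509813, minus strand: gcggcggagtTCGCGAGAgaggcggggc
Rnpc3, chr2:204145213-204145240, minus strand: agaaggccacTCTCGCGAgatcaactca
Btbd10, chr1:176923652-176923679, minus strand: tagtgcgaagTCTCGCGAgaagcagcta
Lrsam1, chr3:36661875-36661902, minus strand: aaagctcaacTCTCGCGAtaactcctgg
Mrps7, chr10:101342392-101342412, plus strand: accTCGCGAGAttctgcgcga
At Rnpc3, an RNA-binding protein gene of the minor spliceosome, and at Btbd10 the match ran on into its complement, so that a palindrome of 10 bases was formed; the members there had signals of 15.5 and lay over the TSS. At Btbd10 the match began 6 bases before the start site. At Tlk2, a nuclear kinase, the match began 8 bases after it and the member, with 18.1, lay 324 bp downstream. At Limk2, a kinase of actin regulation, match and member lay 159 and 133 bp upstream, with a signal of 16.5. Lrsam1, a ubiquitin ligase, had 15.0 at 39 bp upstream, and Mrps7, a mitochondrial ribosomal protein, had 14.8 over the TSS.

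**Figure D4:**
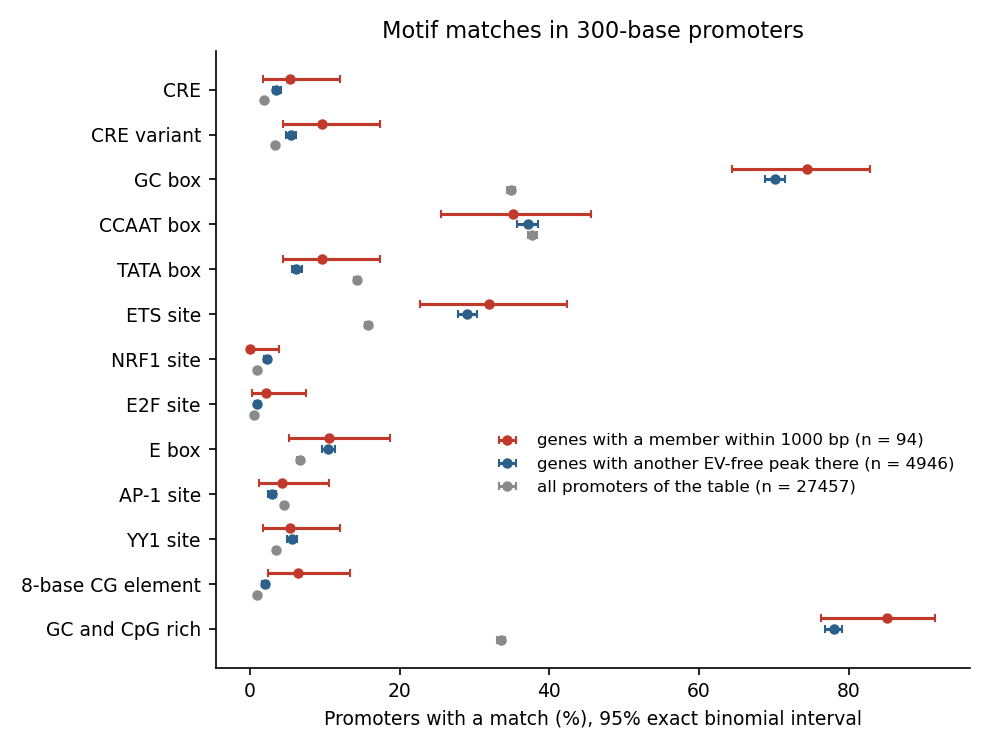
Share of 300-base promoters with at least 1 match to each motif, or with more than 50% G and C and a CpG ratio above 0.6 (bottom row), with exact 95% binomial intervals. Genes with a member (red, n = 94) lay close to other genes with a peak (blue, n = 4946) and away from all promoters (grey) for the GC box, ETS site and base composition; the 8-base CG element stands for the 8-base element found in 6 member promoters.

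Some promoter members lay by the start of a pair of genes. In RefSeq, 23 of the 94 genes (24.5%, 16.2 to 34.4) had a neighbour on the other strand whose start lay head to head, at most 1000 bp away or overlapping by up to 200 bp, against 835 of 4946 other genes with a peak (16.9%, 15.8 to 18.0) and 11.7% of all promoters. The member listed 599 bp upstream of Cep95 is an example: the neighbour there is Ddx5, which encodes an RNA helicase. Others were Mrps7 with Gga3, Lrsam1 with Rpl12, Xrcc4 with Tmem167a, and Ttc19 with Zswim7, so for these the gene named belongs to a pair. The distance from the member to the start of the partner was not measured. The interval of the member genes includes the share of other genes with a peak.

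Among the 31 members in introns and exons, the gene that held the peak was not the gene with the nearest TSS in 13. The members in Lrfn1, a neuronal adhesion protein (exon 2 of 2, chr1:86508195-86508250, signal 17.9), and in Cacna1a were the only exonic ones. The latter occupied chr19:36715151-36715206, with a signal of 15.4, and was listed under Ier2, whose TSS is 36.8 kb away. By the transcript named in the annotation it lay in exon 39 of 47 of Cacna1a, the rat gene of the locus from which α1ACT derives. This gene was singled out after the values were seen. The authors' table held 15 further peaks within Cacna1a, all below the limit, and 8 of the 16 in all lay in exons (50.0%, 24.7 to 75.3), in exons 19, 28, 32, 35, 39, 44 and 45, with 2 peaks in exon 19. Over all genes, 1458 of 27305 peaks in exons or introns lay in exons (5.34%, 5.08 to 5.61). The exon peaks next in signal were those in exon 32 (chr19:36689312-36689367, 10.9) and exon 45 (chr19:36724089-36724144, 10.1), and the 8 intronic peaks did not exceed 4.94. The nearest EV peak was 20.9 Mb away. What share of the gene's length is exonic was not taken into account, and the source of the reads was not tested.

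**Figure D5:**
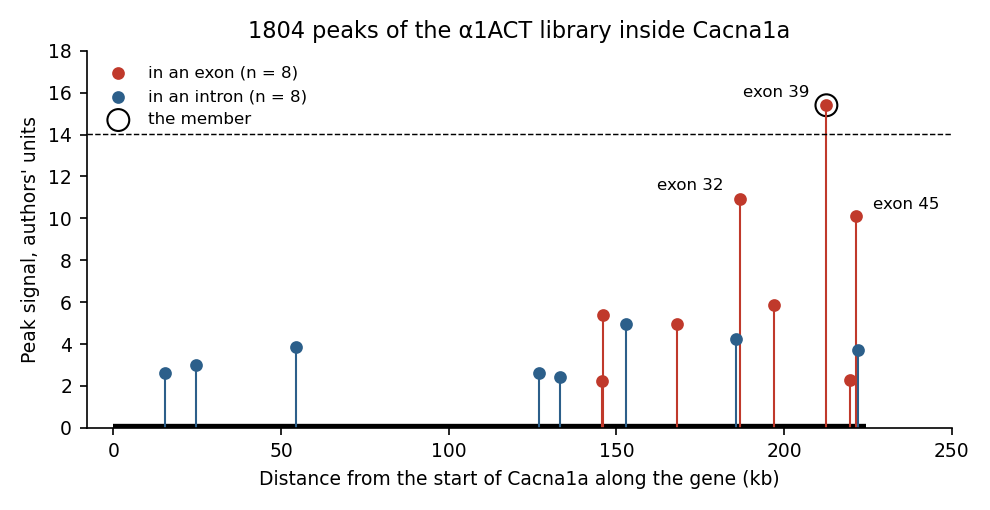
Signal of the 16 α1ACT 1804 peaks inside Cacna1a against the distance from the start of the gene in kb, exonic peaks in red and intronic in blue, with the signal limit dashed and the member circled. The 3 highest lay in exons 39, 32 and 45, at 187 to 222 kb.

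Of the intronic members, Nlgn1, a synaptic adhesion protein, held 1 (intron 3 of 6, signal 25.8), and Lrp1b, a lipoprotein receptor relative, 1 (intron 46 of 88, signal 21.9). Others lay in Meis1 (17.6), Zmiz1 (17.7), Rabgap1 (18.9), Asic4 (18.0), an acid-sensing channel family member, and Kcnj5 (14.6), a potassium channel. Vom2r30 held 2 in the same intron, with 22.4 and 16.2. Of the 29 intronic members, 6 were in a first intron.

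Another α1ACT 1804 peak lay within 1 kb of 194 of the 317 (61.2%, 55.6 to 66.6), against 65.3% (59.8 to 70.5) of the 317 peaks ranked next below the limit, 53.0% (52.7 to 53.2) of all other peaks free of an EV overlap and 27.3% (20.8 to 34.6) of the 172 peaks above the limit that overlapped an EV peak. Near the TSS the share was 56.3% (46.6 to 65.6) among members and 57.2% (56.2 to 58.2) among others, with intervals that overlap. Away from it the shares were 63.2% (55.99 to 70.02) of members and 52.6% (52.3 to 52.8) of others. None of the 5 highest members had such a neighbour, and the most crowded member had 6. With 1 kb counted from peak edges and a fragment size that is not stated, neighbouring peaks can belong to 1 bound stretch, and merging members within 500 bp left 308 sites.

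Clusters of members formed 8 stretches with 3 or more members joined at up to 100 kb, 26 members in all, mostly outside promoters. The densest were 4 members within 1.61 kb near the end of chromosome 12 (466083-467697, signals 16.3 to 34.7), where the annotation names no gene, and 3 within 0.54 kb on chr1:201908546-201909085 (14.2 to 28.2), upstream of Nupr1. On chromosome 14, 4 members lay between 86423820 and 86485407, with signals of 15.1 to 31.0; the one over the TSS of Xbp1, a transcription factor of the unfolded protein response, was the only promoter member among the 26, and the others were listed under Ccdc117. The remaining stretches were listed under Unc5d, Vom1r21, Smpdl3a, Zfp36l2 and Emr4.

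Chromosomes differed in their share. Chromosome 12 had 33.1 members per 100 Mb and chromosome 10 had 26.8, against 1.94 on X, 2.26 on chromosome 5 and 3.22 on chromosome 4. Relative to the number of peaks there, chromosomes 12 and 10 were again highest, with 5.70 and 4.64 members per 1000 peaks free of an EV overlap, and X and chromosome 5 again lowest, with 0.316 and 0.565, followed by chromosome 6 with 0.934 and chromosome 4 with 1.04. On chromosome 10, 19 of the 30 members lay near a TSS, whereas on chromosome 12 it was 4 of 18 and on X 0 of 3. These totals include members without annotation, among them the 4 clustered near the end of chromosome 12. They are therefore not like the 36.7% over annotated members. Lengths run from the first to the last listed peak of each chromosome, and copy number in this line was not measured here.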

How the data were processed

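The 4 precipitated libraries each gave 1 deposited peak list; no list of an input was used. Peak signal is the authors' deposited value per peak, and its scaling between libraries is not given in the sources used here, so it ranks peaks within a list; values from several lists are set side by side only to describe a site. The deposited −log10 q-values were read as given, and the p column was unfilled. The list names point to the spp caller; no source used here gives its settings. Per the submitters' processing notes the build was rn5, and the tools were BWA 0.7.5a, FastQC 0.11.2, HOMER, ChIPseeker and DiffBind, with no role stated. Signed TSS distances in bp and features come from the table the authors deposited, whose column names are those of ChIPseeker. It covers 305 of the 317 members, and holds only peaks free of an EV overlap.

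From these files, overlaps of at least 1 bp, gaps to other peaks, shares with exact 95% binomial intervals (Clopper-Pearson, scipy 1.17.1 under Python 3.11.15) and, where a count was 0, the limit that 3 counts give were computed. With 1 library per group no test was run. The overlap code was tested on simulated lists. Symbols of genes that hold a peak came from the RefSeq table of assembly GRCr8 by gene ID, and promoters from RefSeq. Named sites were the 15 highest-signal members, members overlapping an α1ACT M2 peak and the 5 on either side of the limit; named genes were the 20 with the highest TSS-near signal, the 3 highest of each gene list, and stretches with 3 or more members, placeholder symbols skipped; others were named after their values were seen. The members and gene lists were chosen with earlier results of these data known. Alternatives changed the signal limit, the TSS distance, the EV exclusion distance, merging and the neighbour window.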

Additional observations from a re-analysis of the deposited data

How the results depend on the processing

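No paired analysis was possible because each group holds 1 library. The number of members depends on the signal limit: 317 became 75 at the lowest value of the EV M2 list (19.02), 4 at that of the α1ACT M2 list (53.6), 1280 at a limit of 10 and 64 at 20. It stayed between 304 and 316 when an EV peak within 1 or 10 kb also excluded a peak, without the mitochondrial genome, or with members merged. The share near a TSS was 21.9%, 0% (of 3 annotated members) and 16.1% at limits of 19.02, 53.6 and 20, and 10.4% in ranks 1 to 50 alone, a setting chosen after seeing the data; at a limit of 10 it was 39.9%, and under the other distances, exclusions, merging and denominator it lay between 33.4% and 40%, and in ranks 51 to 317, also chosen after seeing the data, it was 41.6%. The distal intergenic share was 63.0%, 66.7% and 66.1% at those higher limits. The share of background peaks near a TSS was 43.6% when taken from the next signal ranks instead of 5.69%, above that of the members. The share with a neighbouring peak was 49.8% within 500 bp and 67.2% within 3000 bp. The share downstream of the TSS was 73.5% and 67.2% at 500 and 3000 bp, within its interval. Read depth is unknown, and 1 library per group limits every comparison.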

Other observations

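Several exonic peaks in 1 gene were rare. Among 1227 genes with at least 1 exonic peak free of an EV overlap in the α1ACT 1804 list, the median was 1 such peak per gene. Speg, which encodes a muscle kinase, had 9 and Cacna1a had 8, and no other gene had more than 5. Only 16 exonic peaks in the list had a signal of 10 or more, 3 of them in Cacna1a and at most 2 in any other gene. The highest exonic peak of Speg had a signal of 9.83, below the signal limit of the members. This comparison was made after the position of the Cacna1a member had been seen. The source of the reads was not tested.

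Of the genes with a member at the TSS, Atf4 (signal 15.0 at 167 bp downstream) and Xbp1 (15.1 over the TSS) encode transcription factors of the unfolded protein and amino acid stress responses, and were singled out after their values were seen. No list of stress response genes was counted beside the 0.778% of all genes, so no excess of such genes is shown.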
